A study of Mus musculus with 16 samples.

Results

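Mouse hepatocytes co-cultured with cancer cells that lack Phgdh were compared with hepatocytes co-cultured with the same kind of cancer cells carrying Phgdh, with no drug in either culture. The comparison takes 6 of the 16 RNA-seq libraries of the series, chosen by their sample labels, and covers every gene. The KO co-culture has 3 libraries, of hepatocytes labelled as cultured with Phgdh knockout cancer cells. The WT co-culture has 3 libraries, of hepatocytes cultured with Phgdh wild-type cancer cells. In neither group does a label report a change to the hepatocytes' own genes, so the tested difference is the genotype of the neighbouring cells. The cancer cells are the line HY19636 in the series' design text, which does not say whether the knockout is a single clone. That text names the cancer cells as the sequenced material, whereas every sample label names mouse hepatocytes, entered as a cell line, and the labels were followed. Libraries of the same 2 co-cultures with a CXCR2 inhibitor (4 KO and 3 WT) and of hepatocytes alone (3) serve as a comparison. The labels give no duration, culture format, vehicle or batch, and do not tell whether replicates came from different culture dishes. The p-values therefore reflect the spread between these libraries, which may be technical.

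Phgdh encodes phosphoglycerate dehydrogenase, which makes the first committed step from glucose to serine; Psat1 and Psph complete the route. Cells without it depend on serine from their surroundings. Hepatocytes secrete most plasma proteins, complement factors and acute phase proteins, and this programme is driven by liver-enriched transcription factors such as Hnf4a. Immediate early genes, of which the Fos and Jun families and Egr1 are the best known, are transcribed within minutes of growth factor, cytokine or stress signalling through the ERK pathway, and their transcripts decay quickly.

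Levels are FPKM as deposited, that is fragments per kilobase of gene and per M fragments. Fold changes are differences of log2(FPKM + 1), KO co-culture minus WT co-culture, with the SE of limma's fit, and this scale understates changes of genes with low values. A gene was called when its adjusted p (Benjamini-Hochberg over 11395 genes with a mean of at least 1 FPKM) was under 0.05. Recovered depth was 18.1 to 21.2 M fragments in KO co-culture libraries and 16.2 to 20.9 M in WT co-culture libraries, and 1 fragment in a gene of 1 kb was worth 0.0474 to 0.0621 FPKM. WT co-culture replicate 1 stood apart. On the first principal component of the 6 libraries (40.8% of the variance) it lay at 22.2, with the other libraries between -11.0 and 4.77. The second component (19.8%) held the KO libraries at 4.02 to 10.5 and the WT libraries at -8.91 to -4.74. The mitochondrial share of recovered fragments was 3.25 to 3.80% in KO and 3.49 to 4.57% in WT co-culture libraries.

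The libraries carried liver genes at modest levels. Hepatocyte markers summed to 199 to 215 FPKM in KO and 169 to 191 FPKM in WT co-culture libraries, none of the 20 was at 0 in all 6, and 11 were below 1 FPKM in all of them. Albumin (Alb) stood at 27.9, 27.0 and 28.4 FPKM in KO against 27.2, 22.5 and 23.0 FPKM in WT co-culture, a difference of 0.19 ± 0.06 on the log2 scale that missed the threshold (adjusted p = 0.096). Markers of pancreatic cancer epithelium summed to 261 to 280 FPKM in KO and 264 to 291 FPKM in WT co-culture. Of these 17 markers, 13 were below 1 FPKM in all 6 libraries, and Tff1, Tff2, Muc4, Muc5ac, Gkn1 and Agr2 were listed at 0. The sum came almost entirely from the remaining markers. In hepatocytes cultured alone the same markers summed to 363 to 379 FPKM. Cholangiocyte markers, which hepatocytes in culture can also express, summed to 519 to 538 FPKM in KO and 498 to 520 FPKM in WT co-culture. Stellate cell markers (0.0555 to 0.200 FPKM in KO, 0.0599 to 0.211 in WT) and neutrophil markers (0 to 0.152 FPKM in KO, 0 to 0.112 in WT) were close to 0. Macrophage markers summed to 0.950 to 1.32 FPKM in KO and 1.27 to 1.58 FPKM in WT co-culture, with 11 of 15 at 0 in all 6 libraries. Endothelial markers summed to 0.816 to 1.26 FPKM in KO and 0.793 to 1.01 FPKM in WT co-culture. In bulk RNA, fewer cells of a type and less RNA per cell cannot be told apart.

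Hepatocytes next to Phgdh knockout cells had lower transcripts of 10 of 29 tested immediate early genes and of some growth factor response genes, and higher transcripts of a number of liver secretory and metabolic genes. In all, 341 genes were called (2.99% of those tested), 188 higher (1.65%) and 153 lower (1.34%) in KO co-culture. Counts of called list members below are to be read beside these shares. The changes were small. Their median size was 0.27 on the log2 scale, 189 of them reached 1.2-fold, 20 reached 1.5-fold, and only Ttr (higher) and Fosb (lower) reached 2-fold on that scale. Groups that did not overlap were common: the 3 KO and 3 WT libraries did not overlap for 1794 genes (15.7%), of which 934 (8.2%) were higher and 860 (7.55%) lower in KO co-culture, among them 339 of the called ones.

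The number of calls rested on the spread estimated from all 16 libraries. In a fit of the 6 libraries alone, which leaves 4 residual degrees of freedom in place of 11, 17 genes were called (0.149%), 7 higher and 10 lower, although 340 of the 341 had an unadjusted p under 0.05 there. The 17 were Ttr, Agt, Slc2a2, Smoc1, Ccl2, C3 and Rras2 (higher) and Egr1, Ptprn, Fosb, Fos, Igfbp3, Zfp57, Fbln2, Acsbg1, Tnfrsf21 and F2rl1 (lower), and they were also called in each fit that left out 1 library. Leaving out 1 KO or WT library gave between 157 calls (without KO replicate 3) and 398 (3.49%, without WT replicate 1), with 175 and 197 without KO replicates 1 and 2, and 232 and 199 without WT replicates 2 and 3. Of the 341, 116 were called in all of these fits, 60 higher and 56 lower, and 260 were called without the WT library that stood apart. Limma's voom test on the recovered fragments called 330 genes, 283 of them shared with the 341.

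**Figure D1:**
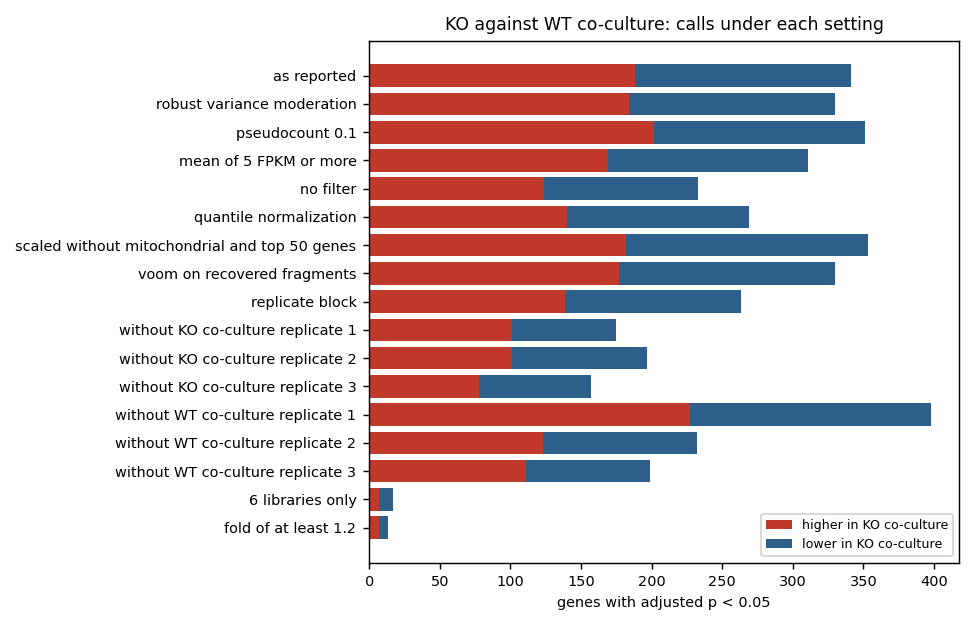
Number of genes with an adjusted p under 0.05 between KO and WT co-culture (horizontal axis) under each setting, split into genes higher (red) and lower (blue) in KO co-culture. The count was 341 as reported, 157 to 398 with 1 library left out, and 17 in the fit of the 6 libraries alone.

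Genes of serine synthesis in the hepatocytes did not pass the threshold. Phgdh itself stood at 193, 201 and 197 FPKM in KO co-culture against 199, 206 and 195 FPKM in WT co-culture (-0.02 ± 0.04, adjusted p = 0.882). These are hepatocyte transcripts by label and so are no check of the deletion in the cancer cells. Psat1 was at 118, 116 and 117 FPKM in KO and 142, 123 and 123 FPKM in WT co-culture (adjusted p = 0.167), and the ranges did not overlap. Psph, the phosphatase that releases serine, was at 24.6, 25.2 and 24.6 FPKM in KO and 24.6, 25.2 and 26.9 FPKM in WT co-culture (adjusted p = 0.844). Of 30 tested genes of serine, glycine and folate metabolism none was called by limma, and their median change was 0.00. At an unadjusted p under 0.05 2 were higher and 6 lower, and limma's voom on recovered fragments called 1 as lower. Shmt1 and Shmt2, which convert serine to glycine in the cytosol and in mitochondria, averaged 14.5 and 67.9 FPKM in KO and 16.2 and 77.5 FPKM in WT co-culture (adjusted p = 0.297 and 0.164). Of 26 amino acid transporters limma called 1 on FPKM (3.85%, against 2.99% of all genes), and by voom or without WT replicate 1 the counts were 1 higher and 2 lower. The higher one, Slc43a2, a carrier of large neutral amino acids, was at 1.49, 1.44 and 1.47 FPKM in KO against 0.940, 0.977 and 1.05 FPKM in WT co-culture (0.31 ± 0.06, adjusted p = 0.0114). Of 33 targets of ATF4, the factor that answers amino acid shortage, none was higher and 3 were lower (9.09% called, against 2.99% of all genes). The 3 were Gdf15, Pycr1 and Cars, lower by 0.16 to 0.41 on the log2 scale. None of these 3 calls held in every fit that left out a library. Pycr1, of proline synthesis, lost it without KO replicate 1 or 2 or WT replicate 2, and Cars, the cysteinyl-tRNA synthetase, without KO replicate 1 or 3 or WT replicate 2 or 3. Cxcr2, the receptor named in the label of the inhibitor used elsewhere in the series, was barely detected. It was listed at 0 in all but KO replicate 3, where 4 fragments gave 0.0727 FPKM. Cxcr1 was listed at 0 in all 6 libraries.

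Immediate early genes were lower wherever they were called. Of 29 tested, 10 were lower and none higher in KO co-culture (34.5% called, against 2.99% of all genes), 25 had a negative fold change, and the median change was -0.10 against 0.01 over all genes tested. Without WT replicate 1 the count was 9 lower and 0 higher with a median of -0.20, and in the 6 libraries alone 3 lower (Fosb, Egr1 and Fos). The list was drawn up with earlier results of these data known.

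Fosb, which encodes a partner of Jun proteins in the AP-1 transcription factor, was at 1.34, 1.25 and 1.10 FPKM in KO co-culture against 3.46, 4.88 and 3.97 FPKM in WT co-culture. That is from 124 to 170 recovered fragments per KO library and 348 to 578 per WT library, and the difference was -1.19 ± 0.09 (adjusted p = 5.82e-06). Egr1, a zinc finger factor induced by ERK signalling, was at 36.9, 38.3 and 39.8 FPKM in KO against 71.3, 72.8 and 72.1 FPKM in WT co-culture (-0.89 ± 0.03, adjusted p = 3.31e-09). The libraries of each group lay within a few FPKM of each other for Egr1, and the gap between groups was many times that spread. Fos was at 20.7, 20.2 and 21.6 FPKM in KO against 28.3, 30.1 and 31.8 FPKM in WT co-culture (-0.51 ± 0.09, adjusted p = 0.006). Jun, its main partner, was at 14.3, 15.1 and 14.3 FPKM in KO against 17.3, 20.3 and 18.9 FPKM in WT co-culture (-0.35 ± 0.05, adjusted p = 0.00243). Ier2, an early response nuclear protein, was at 52.3, 60.7 and 62.3 FPKM in KO against 81.2, 84.4 and 81.6 FPKM in WT co-culture (-0.49 ± 0.06, adjusted p = 0.000737). For none of these genes did the groups overlap.

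Btg2, an antiproliferative gene that p53 also induces, was at 11.7, 11.9 and 11.9 FPKM in KO against 17.1, 15.3 and 15.4 FPKM in WT co-culture (-0.40 ± 0.06, adjusted p = 0.00203). Ier3, a survival-related early gene, was at 48.0, 51.4 and 46.9 FPKM in KO against 58.1, 65.2 and 62.2 FPKM in WT co-culture (-0.34 ± 0.06, adjusted p = 0.00418). Both calls held with any 1 library left out. The remaining 3 did not: Nr4a1 (an orphan nuclear receptor, -0.43 ± 0.10) and Fosl1 (an AP-1 subunit, -0.27 ± 0.06) lost the call without any KO replicate or without WT replicate 2 or 3, and Phlda1 (-0.44 ± 0.10) lost it without KO replicate 1 or 2 or WT replicate 1 or 2. Of the 29 early genes 13 had groups that did not overlap, 11 lower and 2 higher. Over all genes tested 15.7% did not overlap, 7.55% lower and 8.2% higher. Some other early genes were close to level on average. Myc averaged 88.8 FPKM in KO and 88.1 in WT co-culture (0.01), Junb 154 and 158 FPKM (-0.02), Atf3 32.8 and 33.3 FPKM (-0.02) and Srf 13.8 and 13.6 FPKM (0.02), with adjusted p of 0.92 to 0.95. The level means of Junb rested on WT replicate 1. Its libraries were at 149, 164 and 148 FPKM in KO against 127, 182 and 165 FPKM in WT co-culture.

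**Figure D2:**
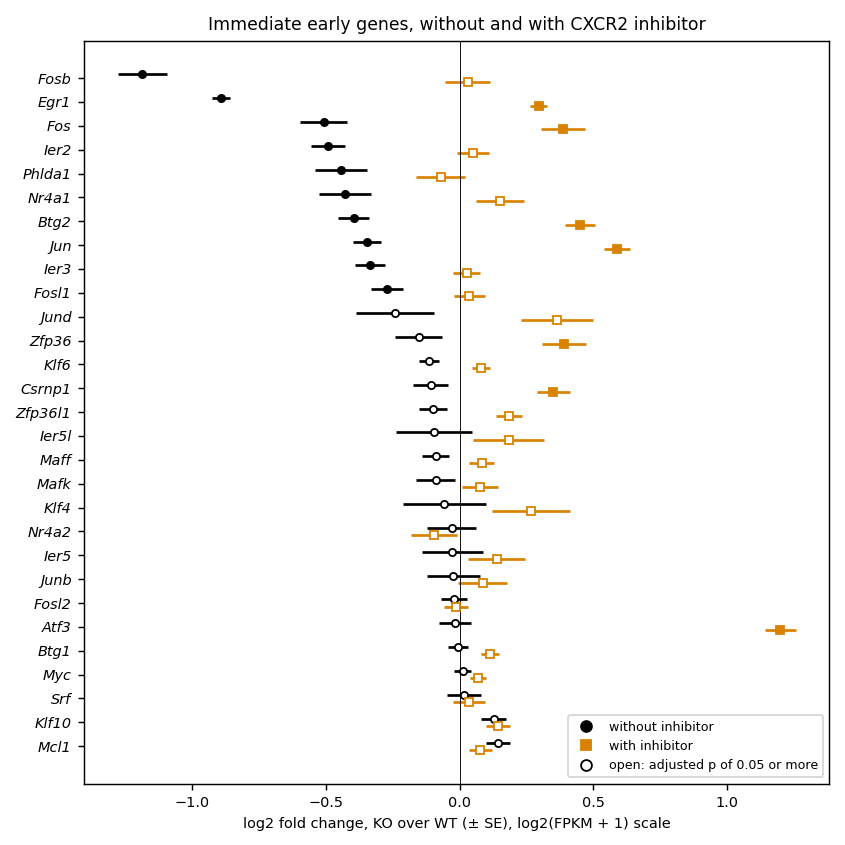
Log2 fold change (horizontal axis, KO over WT, ± SE, log2(FPKM + 1) scale) of the 29 tested immediate early genes without the inhibitor (circles) and with it (squares), with filled symbols for an adjusted p under 0.05. Without the inhibitor the 10 called genes lie left of 0, and with it the 7 called genes lie right of 0.

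The promoters of some of these genes are shown because their transcripts moved together. RefSeq promoter windows (build GRCm38.p6) were matched for 6 of the 10 lower immediate early genes, and the last 200 bases before the annotated first base are given for Fos, Jun and Btg2, beside those of Agt and C3, liver secretory genes that were higher. Capitals mark a TATA box (TATAAA) or a cyclic AMP response element (CRE, TGACGTCA), and a sequence with no capitals holds neither.
Fos, chr12:85473690-85473889, plus strand: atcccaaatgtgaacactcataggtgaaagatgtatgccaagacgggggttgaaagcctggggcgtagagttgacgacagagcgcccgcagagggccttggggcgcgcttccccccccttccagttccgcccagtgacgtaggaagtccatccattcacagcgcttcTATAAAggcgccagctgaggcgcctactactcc
Jun, chr4:95052223-95052422, minus strand: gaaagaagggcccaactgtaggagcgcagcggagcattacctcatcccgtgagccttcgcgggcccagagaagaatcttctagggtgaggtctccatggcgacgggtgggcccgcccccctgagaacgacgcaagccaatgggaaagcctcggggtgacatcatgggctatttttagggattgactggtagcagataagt
Btg2, chr1:134079156-134079355, minus strand: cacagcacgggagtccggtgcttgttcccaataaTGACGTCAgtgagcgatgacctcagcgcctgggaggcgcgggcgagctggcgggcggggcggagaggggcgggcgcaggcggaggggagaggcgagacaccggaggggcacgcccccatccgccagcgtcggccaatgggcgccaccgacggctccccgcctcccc
Agt, chr8:124569707-124569906, minus strand: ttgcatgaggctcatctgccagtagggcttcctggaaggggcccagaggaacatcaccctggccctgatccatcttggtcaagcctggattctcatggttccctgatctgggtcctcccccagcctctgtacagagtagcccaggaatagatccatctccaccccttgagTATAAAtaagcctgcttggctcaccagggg
C3, chr17:57228137-57228336, minus strand: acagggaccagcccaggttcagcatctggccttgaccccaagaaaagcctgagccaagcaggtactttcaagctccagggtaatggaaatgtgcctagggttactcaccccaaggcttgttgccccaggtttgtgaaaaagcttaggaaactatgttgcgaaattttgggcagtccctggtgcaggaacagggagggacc

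Within 250 bases upstream, on both strands, the TATA box of Fos began 33 bases before the first base and that of Agt 30 bases before it, and the CRE of Btg2 began 166 bases before it. Among the 6 matched immediate early genes, 1 held TATAAA, 1 held TGACGTCA, and none held a CArG box or an AP-1 site (TGANTCA). Of all 32851 promoter windows, 12.4% held TATAAA, 1.55% TGACGTCA, 1.47% a CArG box and 6.75% TGANTCA. Of 13 called plasma, acute phase and complement genes 9 were matched, and 5 of them held TATAAA and 3 TGANTCA. These are letter matches in a short window, and no match there says nothing of sites elsewhere.

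Of 22 tested feedback genes of the ERK pathway, 3 were lower and 1 higher (18.2% called), with a median change of -0.06. By voom and without WT replicate 1 the counts were 3 lower and none higher, and in the 6 libraries alone none was called in the fit on FPKM. Spry2, an inhibitor of receptor tyrosine kinase signalling, was at 32.2, 36.0 and 30.8 FPKM in KO against 41.5, 41.1 and 44.6 FPKM in WT co-culture (-0.35 ± 0.05, adjusted p = 0.00209). Etv4, an ETS factor downstream of ERK, differed by -0.30 ± 0.06 (adjusted p = 0.0129) and lost the call without KO replicate 3 or WT replicate 2. Dusp6, the phosphatase that inactivates ERK, differed by -0.19 ± 0.04 (adjusted p = 0.0141) and lost it without KO replicate 1 or 3. Errfi1, an inhibitor of the EGF receptor, was the higher one, by 0.14 ± 0.03 (adjusted p = 0.0386), and lost it without any KO replicate or without WT replicate 1 or 2, by voom (adjusted p = 0.0883) and with quantile normalization (adjusted p = 0.15).

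Of 21 tested ligands and receptors of growth factors, 3 were lower and 4 higher, and 14 did not pass. The 3 lower ones were ligands and the 4 higher ones receptors or a co-receptor, and a difference by role was not tested. Without WT replicate 1 the counts were 3 lower and 2 higher, and in the 6 libraries alone none was called. Hbegf, a ligand of the EGF receptor, was at 17.1, 17.0 and 14.6 FPKM in KO against 21.5, 22.7 and 21.7 FPKM in WT co-culture (-0.42 ± 0.05, adjusted p = 0.000368). Btc, betacellulin, another such ligand, was at 26.2, 24.3 and 24.3 FPKM in KO against 35.7, 31.3 and 31.5 FPKM in WT co-culture (-0.38 ± 0.08, adjusted p = 0.0147), a call lost without KO replicate 2 or 3. Gdf15, a stress-induced cytokine that also counts among the ATF4 targets, was at 21.2, 25.4 and 20.8 FPKM in KO against 28.1, 33.1 and 29.6 FPKM in WT co-culture (-0.41 ± 0.10, adjusted p = 0.0432), and lost its call without KO replicate 1 or 3 or WT replicate 2 or 3. Among the receptors, Fgfr2 was at 8.34, 7.65 and 6.69 FPKM in KO against 5.01, 4.74 and 5.52 FPKM in WT co-culture (0.49 ± 0.06, adjusted p = 0.000601), with other annotated genes overlapping its span. Klb, the co-receptor of endocrine FGFs in liver, differed by 0.37 ± 0.08 (adjusted p = 0.0183) and lost its call without KO replicate 1 or 3 or WT replicate 3. Fgfr3 (0.27 ± 0.07) and the insulin receptor gene Insr (0.17 ± 0.04) were also called, Insr in none of the fits that left out 1 library and Fgfr3 only in that without WT replicate 2.

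Targets of the actin-responsive factor SRF and of YAP gave few calls, 1 higher and 3 lower of 16 and 1 higher and 2 lower of 16. Fhl2, a LIM-domain cofactor, was at 21.7, 21.5 and 19.1 FPKM in KO against 24.8, 26.8 and 28.5 FPKM in WT co-culture (-0.35 ± 0.06, adjusted p = 0.0037), and an annotated gene overlaps it. Nuak2, a kinase gene activated by YAP, was the higher one, at 10.4, 10.7 and 9.83 FPKM in KO against 8.14, 8.88 and 8.26 FPKM in WT co-culture (0.26 ± 0.05, adjusted p = 0.00665). These 2 calls held with any 1 library left out, whereas those of the other members (Tpm4, Flna, Vcl, Ankrd1 and Axl, 0.14 to 0.22 in size) did not: each was lost without KO replicate 3, each without WT replicate 3, and 4 of them without KO replicate 1.

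Of the liver secretory genes that were called, all but Serpina1a were higher in KO co-culture, and most tested members did not pass. Of 25 tested plasma protein genes, 5 were higher and 1 lower, with a median change of 0.14. Of 15 acute phase genes 4 were higher, with a median of 0.21, and of 19 complement and coagulation genes 3 were higher, with a median of 0.09. No member of the last 2 lists was lower. Without WT replicate 1 the counts were 8 higher and 0 lower, 4 and 0, and 4 and 0, and in the 6 libraries alone 2, 0 and 1 were higher (Ttr, Agt and C3). Voom on recovered fragments called 3, 4 and 3 as higher and none as lower. The hepatocyte marker sum given above was higher in every KO library than in every WT library, but it includes Ttr. Without Ttr the sums of both groups overlapped. In KO replicate 2 the sum was 199 FPKM with Ttr at 52.96 FPKM, and in WT replicate 1 it was 191 FPKM with Ttr at 23.8 FPKM. Ttr alone was 26.5 FPKM higher on average in KO co-culture. The part of the marker sum in these counts was not tested. Of the 14 tested hepatocyte markers 2 were called as higher and 2 as lower.

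Ttr encodes transthyretin, the carrier of thyroxine and of retinol-binding protein. It was at 47.1, 52.96 and 51.2 FPKM in KO co-culture against 23.8, 25.1 and 22.9 FPKM in WT co-culture, 2.11-fold in mean FPKM (1.04 ± 0.06 on the log2 scale, adjusted p = 2.79e-07). Agt, which encodes the precursor of angiotensin, was at 12.2, 11.9 and 11.5 FPKM in KO against 5.55, 6.08 and 6.33 FPKM in WT co-culture, 1.98-fold (0.88 ± 0.08, adjusted p = 1.58e-05). Neither gene's groups came near each other. Apoh, a phospholipid-binding plasma protein, was far lower in level, at 0.742, 0.683 and 0.834 FPKM in KO against 0.195, 0.232 and 0.150 FPKM in WT co-culture (0.56 ± 0.08, adjusted p = 0.0022). It rests on 23 to 24 fragments per KO library and 5 to 7 per WT library, the call was lost by voom (adjusted p = 0.0547), and Prkca overlaps it on the opposite strand. Apoe, of lipoprotein particles, was at 395, 465 and 383 FPKM in KO against 205, 335 and 295 FPKM in WT co-culture (0.60 ± 0.15, adjusted p = 0.0432). Its lowest value was in WT replicate 1, and it was called in only 1 of the 6 fits with a library left out, that without WT replicate 2. Vtn, vitronectin, differed by 0.39 ± 0.09 (adjusted p = 0.0395), a call lost without any KO replicate or WT replicate 3. The lower gene was Serpina1a (-0.39 ± 0.10, adjusted p = 0.0462), 1 of several near-identical alpha-1-antitrypsin copies between which reads may be split, and it was called only with WT replicate 2 left out.

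Among acute phase genes, Lbp, the lipopolysaccharide-binding protein, was at 31.8, 33.1 and 31.3 FPKM in KO against 25.7, 24.2 and 25.0 FPKM in WT co-culture (0.35 ± 0.04, adjusted p = 7.83e-05). Cp, the copper-carrying ferroxidase ceruloplasmin, was at 18.8, 17.1 and 19.1 FPKM in KO against 15.4, 13.3 and 13.2 FPKM in WT co-culture (0.37 ± 0.06, adjusted p = 0.00571), with the gene Hps3 overlapping it. Both held with any 1 library left out. The pentraxins were less firm: Crp (0.31 ± 0.06, adjusted p = 0.0147) lost its call without KO replicate 1 or 2 or WT replicate 2 or 3, and Apcs, serum amyloid P (0.58 ± 0.14, adjusted p = 0.0401), lost it without any 1 of the 6 libraries. Of the complement genes, C3, the central component, was at 65.2, 66.0 and 64.1 FPKM in KO against 45.7, 44.9 and 43.6 FPKM in WT co-culture (0.53 ± 0.03, adjusted p = 2.79e-07). Cfi, the protease that inactivates C3b, was at 38.3, 37.0 and 37.3 FPKM in KO against 28.7, 29.4 and 31.8 FPKM in WT co-culture (0.32 ± 0.04, adjusted p = 0.000934). C4b was at 25.9, 27.8 and 26.7 FPKM in KO against 23.5, 21.1 and 21.9 FPKM in WT co-culture (0.26 ± 0.04, adjusted p = 0.00242). An activator of the cascade and its inactivator were both higher.

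**Figure D3:**
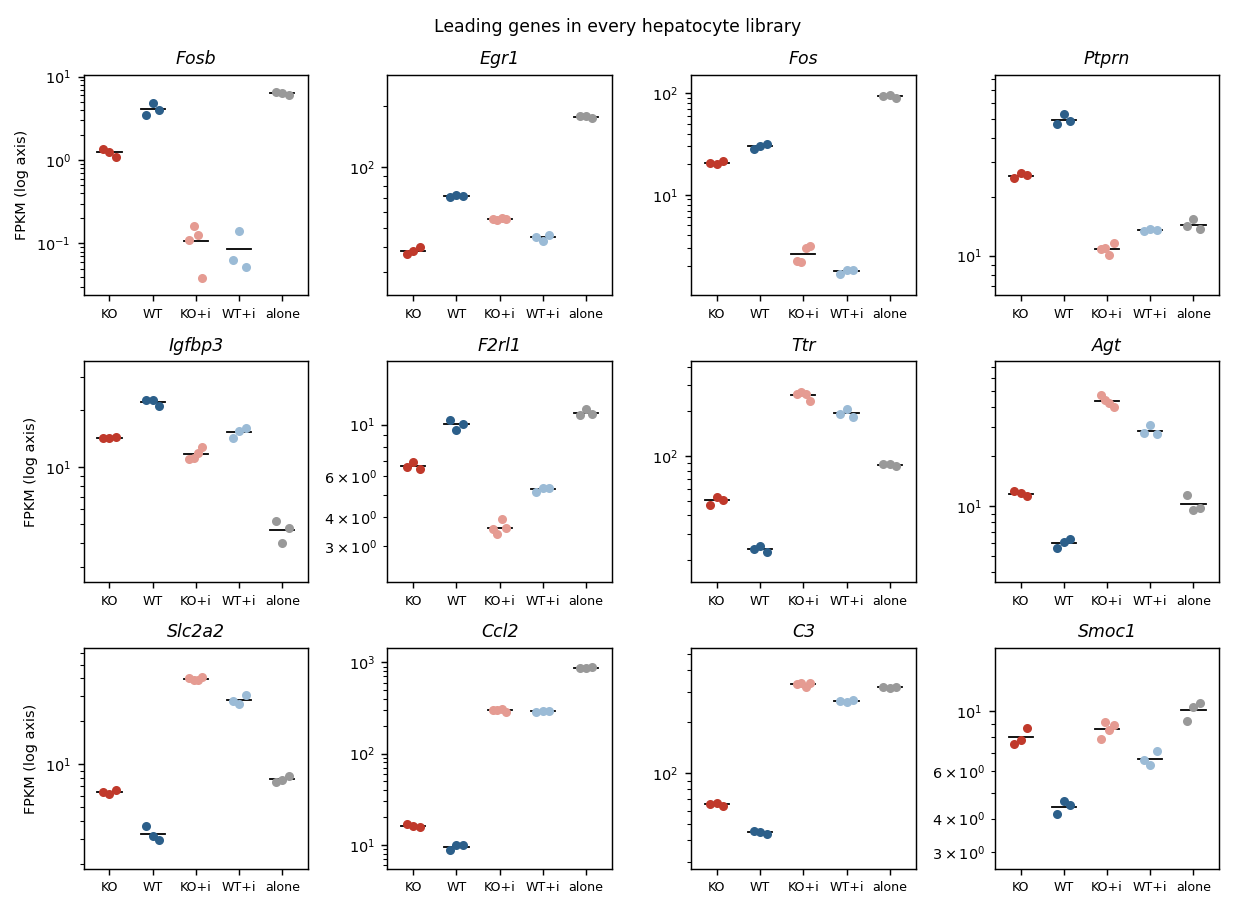
FPKM (log axis) of 12 leading genes in every library of the 5 groups (KO and WT co-culture, KO and WT co-culture with the inhibitor, and hepatocytes alone), with points for libraries and bars for group means. Ttr lies at 47.1 to 52.96 FPKM in KO and 22.9 to 25.1 FPKM in WT co-culture, and Fosb at 1.10 to 1.34 FPKM in KO and 3.46 to 4.88 FPKM in WT co-culture.

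Liver transcription factors did not follow in 1 direction. Of 30 tested, 3 were higher and 1 lower. The lower one was Hnf4a, the nuclear receptor that maintains the hepatocyte programme, at 41.7, 42.5 and 38.8 FPKM in KO against 46.7, 51.8 and 51.0 FPKM in WT co-culture (-0.27 ± 0.04, adjusted p = 0.00322), and this call held with any 1 library left out. The higher ones were Onecut1 (HNF6, 0.40 ± 0.10), Nr5a2 (LRH-1, a regulator of bile acid synthesis, 0.34 ± 0.07) and Nr1h4 (the bile acid receptor FXR, 0.21 ± 0.04), with adjusted p of 0.0413, 0.0191 and 0.0198. Onecut1 lost its call without KO replicate 2 or 3 or WT replicate 1 or 2, Nr5a2 without KO replicate 1 or 3 or WT replicate 2, and Nr1h4 without KO replicate 1 or 2 or WT replicate 2.

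Genes of sugar and fat handling were higher where they were called, apart from glycolysis. Slc2a2 encodes GLUT2, the liver glucose transporter, and was at 6.35, 6.17 and 6.55 FPKM in KO against 3.70, 3.12 and 2.96 FPKM in WT co-culture (0.79 ± 0.06, adjusted p = 7e-06). Of 17 genes of glucose output, fructose and glycogen 2 were called, both higher, and for Slc2a2 no KO library reached into the WT range. Of 27 genes of fatty acid oxidation 4 were higher and none lower. Acox2, a peroxisomal oxidase of bile acid side chains, was at 142, 148 and 136 FPKM in KO against 99.0, 115 and 115 FPKM in WT co-culture (0.38 ± 0.06, adjusted p = 0.00231). Acot1, an acyl-CoA thioesterase, differed by 0.29 ± 0.05 (adjusted p = 0.00474). The call of Acaa1b, a peroxisomal thiolase (0.39 ± 0.09), was lost without KO replicate 2 or 3 or WT replicate 1 or 3. Of 26 lipogenic and lipid storage genes 3 were higher, led by Hsd17b13, a lipid droplet protein, at 6.81, 5.51 and 7.57 FPKM in KO against 3.28, 4.06 and 3.96 FPKM in WT co-culture (0.67 ± 0.10, adjusted p = 0.0022).

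In glycolysis, of 24 genes tested none was higher and 2 were lower. Eno1, enolase, was at 57.3, 58.2 and 60.6 FPKM in KO against 80.2, 71.2 and 73.5 FPKM in WT co-culture (-0.35 ± 0.04, adjusted p = 0.000591). Pkm, pyruvate kinase M, differed by -0.19 ± 0.04 (adjusted p = 0.0282), a call lost without KO replicate 1 or 3 or WT replicate 2 or 3, and another annotated gene overlaps it on the same strand. Of 30 genes of cholesterol synthesis and uptake 1 was called, as lower. Of 27 drug metabolism genes 3 were higher and 1 lower. Gsta3, a glutathione transferase, was at 38.1, 38.3 and 36.7 FPKM in KO against 29.0, 28.9 and 29.1 FPKM in WT co-culture (0.37 ± 0.04, adjusted p = 7.27e-05), and Cyp3a13 differed by 0.35 ± 0.06 (adjusted p = 0.00332). Abcb1a, a drug efflux pump of the canalicular membrane, was the only bile acid, anion or drug transporter called of 9, at 3.03, 3.03 and 3.20 FPKM in KO against 4.77, 3.90 and 4.36 FPKM in WT co-culture (-0.38 ± 0.06, adjusted p = 0.00391).

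Of 32 chemokines and NF-kB targets 3 were higher and 2 lower. Ccl2, the monocyte attractant, was at 16.7, 16.2 and 15.5 FPKM in KO against 8.73, 9.92 and 10.02 FPKM in WT co-culture (0.70 ± 0.05, adjusted p = 1.24e-06). Vcam1, a leukocyte adhesion molecule, was at 10.9, 10.3 and 10.6 FPKM in KO against 9.08, 8.60 and 9.05 FPKM in WT co-culture (0.23 ± 0.04, adjusted p = 0.00945). Nfkbiz, a nuclear cofactor of NF-kB, was in turn lower, at 3.53, 3.90 and 3.99 FPKM in KO against 5.35, 5.09 and 4.96 FPKM in WT co-culture (-0.35 ± 0.04, adjusted p = 0.000595). These calls held with any 1 library left out. Those of Cxcl17 (0.77 ± 0.17), lost without KO replicate 1 or 3 or WT replicate 1 or 3, and Bcl3 (-0.23 ± 0.06), lost without any 1 library other than KO replicate 2, did not.

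Several genes of secreted and surface proteins kept their calls with any 1 library left out. Igfbp3, a binding protein of insulin-like growth factors, was at 14.2, 14.3 and 14.5 FPKM in KO against 22.6, 22.5 and 21.1 FPKM in WT co-culture (-0.59 ± 0.07, adjusted p = 0.000536). Fbln2, a matrix glycoprotein, was at 27.3, 28.9 and 27.9 FPKM in KO against 38.4, 41.5 and 40.0 FPKM in WT co-culture (-0.50 ± 0.04, adjusted p = 3.93e-06). Smoc1, a calcium-binding matrix protein, went the other way, at 7.58, 7.82 and 8.68 FPKM in KO against 4.17, 4.65 and 4.49 FPKM in WT co-culture (0.73 ± 0.07, adjusted p = 4.18e-05). F2rl1 encodes the protease-activated receptor PAR2 and was at 6.58, 6.89 and 6.44 FPKM in KO against 10.5, 9.51 and 10.1 FPKM in WT co-culture (-0.53 ± 0.05, adjusted p = 4.32e-05). Tnfrsf21, death receptor 6, was at 13.04, 13.03 and 13.2 FPKM in KO against 17.8, 17.7 and 17.6 FPKM in WT co-culture (-0.41 ± 0.05, adjusted p = 0.000303). In none of these did a KO library reach into the WT range.

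Ptprn, which encodes a membrane protein of dense-core secretory granules known from pancreatic islets and neurons, was at 24.9, 26.3 and 25.8 FPKM in KO against 47.3, 52.7 and 48.6 FPKM in WT co-culture (-0.92 ± 0.05, adjusted p = 3.34e-07). It was the only 1 called of 4 tested genes of that list. Zfp57, a zinc finger protein that protects imprinted methylation in the embryo, was at 20.5, 19.9 and 19.6 FPKM in KO against 28.9, 28.1 and 28.8 FPKM in WT co-culture (-0.49 ± 0.04, adjusted p = 9.51e-06). Acsbg1, an acyl-CoA synthetase, was at 23.5, 24.7 and 24.1 FPKM in KO against 32.4, 32.5 and 32.5 FPKM in WT co-culture (-0.41 ± 0.06, adjusted p = 0.00221). Rras2, a small GTPase of the RAS family, was higher, at 56.0, 57.4 and 57.9 FPKM in KO against 44.4, 43.6 and 44.2 FPKM in WT co-culture (0.37 ± 0.04, adjusted p = 0.000274). Acsbg1, Tnfrsf21 and Rras2 are named because the fit of the 6 libraries called them, a choice made after their values were seen. Sema3c, a secreted guidance protein (-0.54 ± 0.08, adjusted p = 0.00189), and Npnt, a matrix protein of basement membranes (-0.51 ± 0.05, adjusted p = 0.000124), were also lower. Of 34 genes of TGF-beta response and matrix 1 was higher (Smoc1) and 4 were lower. Among the lower ones, the integrin gene Itga3 was at 75.0, 79.0 and 77.2 FPKM in KO against 84.8, 93.4 and 90.3 FPKM in WT co-culture (-0.21 ± 0.04, adjusted p = 0.0069).

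Among the 20 largest rises and 20 largest falls that separated both groups, several genes belong to none of the lists. Wnt4, a secreted signalling protein, was at 7.59, 8.56 and 8.08 FPKM in KO against 5.03, 5.92 and 4.98 FPKM in WT co-culture (0.53 ± 0.06, adjusted p = 0.000305). Xdh, xanthine dehydrogenase of purine breakdown, was at 5.42, 5.38 and 5.14 FPKM in KO against 3.65, 3.36 and 3.35 FPKM in WT co-culture (0.50 ± 0.04, adjusted p = 9.78e-06). Arrdc3, an arrestin-like adaptor of receptor trafficking, was lower, at 2.77, 2.59 and 3.26 FPKM in KO against 4.55, 4.04 and 4.39 FPKM in WT co-culture (-0.46 ± 0.07, adjusted p = 0.00203). These 3 calls held with any 1 library left out. Il11, an interleukin of the IL-6 family, was at 3.89, 4.68 and 4.02 FPKM in KO against 5.83, 7.86 and 6.47 FPKM in WT co-culture (-0.57 ± 0.14, adjusted p = 0.0483) and lost its call without any KO replicate or without WT replicate 2 or 3. By absolute FPKM, abundant genes with small fold changes had some of the largest differences. Selenop, the plasma selenium carrier, was at 227, 213 and 225 FPKM in KO against 196, 165 and 173 FPKM in WT co-culture (0.32 ± 0.06, adjusted p = 0.00681). With quantile normalization it was not called (adjusted p = 0.133).

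Cell cycle genes gave 6 higher and 2 lower calls of 43 tested (18.6%, against 2.99% of all genes), with a median change of 0.10. The higher ones belong to S phase and mitosis and stood at low levels. Top2a was at 3.42, 3.46 and 3.75 FPKM in KO against 2.62, 2.89 and 2.78 FPKM in WT co-culture (0.27 ± 0.05, adjusted p = 0.00732), and the mitotic motor Kif11 was at 2.57, 2.55 and 2.88 FPKM in KO against 1.75, 2.07 and 1.85 FPKM in WT co-culture (0.34 ± 0.06, adjusted p = 0.00571). Rrm2, a subunit of ribonucleotide reductase, differed by 0.38 ± 0.07 (adjusted p = 0.00965), a call lost by voom (adjusted p = 0.104). The lower ones act in G1: Ccnd1, cyclin D1, was at 107, 106 and 108 FPKM in KO against 127, 126 and 120 FPKM in WT co-culture (-0.21 ± 0.03, adjusted p = 0.00196), and the inhibitor gene Cdkn2b differed by -0.29 ± 0.07 (adjusted p = 0.0348), lost without KO replicate 1 or 3 or WT replicate 2 or 3. Without WT replicate 1 the counts were 4 higher and 3 lower, and by voom 2 and 3. Of 45 interferon-stimulated genes 4 were higher and none lower (8.89% called, against 2.99% of all genes). They were Usp18, Irgm1, Parp14 and B2m, by 0.19 to 0.36, and each of these calls was lost without KO replicate 3 and at least 1 other library.

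Housekeeping groups gave no or few calls. None of 62 cytosolic ribosomal protein genes (median 0.02, and -0.08 without WT replicate 1) and none of 44 nuclear genes of the respiratory chain (median 0.11, and 0.02 without WT replicate 1) passed limma's threshold, on FPKM or by voom on fragments, and 5 and 6 of them had an unadjusted p under 0.05. Of 27 genes of the unfolded protein response 2 were lower, of 17 of the urea cycle and amino acid breakdown 1 was higher, and of 24 NRF2 targets 1 was higher. Among the 15 mitochondrially encoded genes mt-Nd2, of complex I, was called at 2315, 1787 and 2194 FPKM in KO against 3474, 2483 and 2729.9 FPKM in WT co-culture (-0.46 ± 0.11, adjusted p = 0.0462). Its highest value was in WT replicate 1, and the call was lost without that library, without WT replicate 3 and without any KO replicate.

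**Figure D4:**
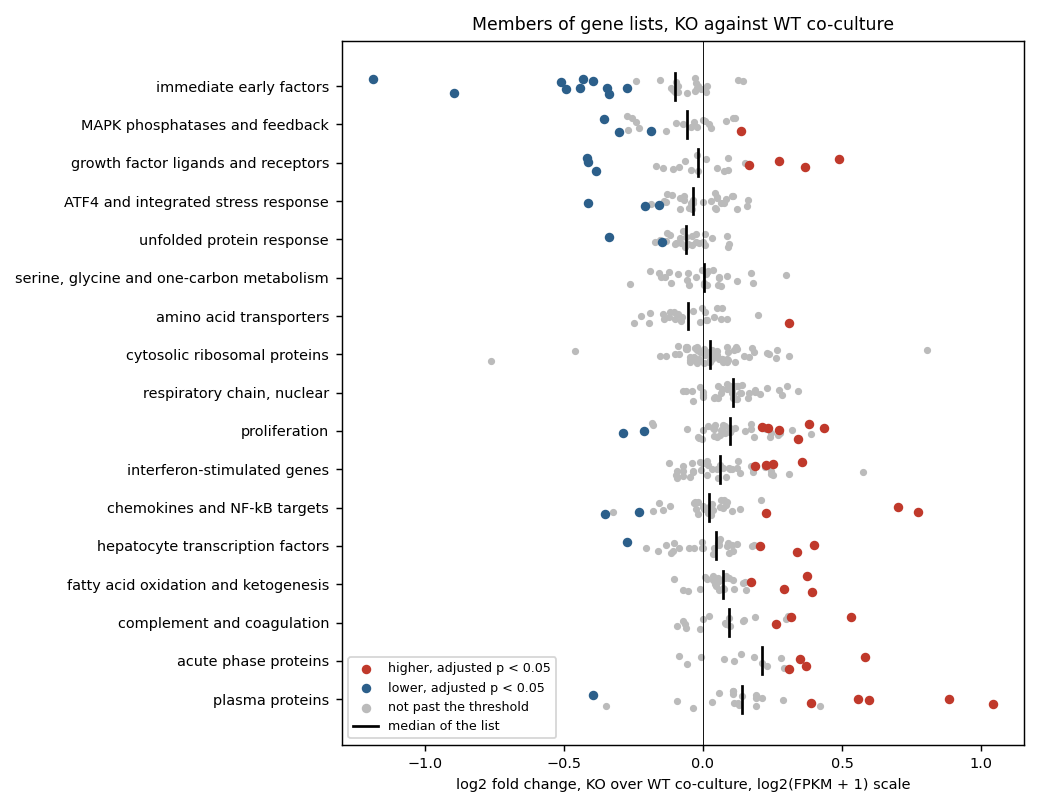
Log2 fold change (horizontal axis, KO over WT co-culture, log2(FPKM + 1) scale) of each tested member of 17 gene lists, 1 row per list, with red for higher and blue for lower genes with an adjusted p under 0.05, grey for the others and a black bar for the list's median. The called immediate early genes all lie left of 0, and all 7 called acute phase and complement genes lie right of it.

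The genotype contrast was also available in 7 libraries that share none with the 6 above, those of KO and WT co-culture with the CXCR2 inhibitor. There 263 genes were called (2.31%). Of the 341 genes, 238 (69.8%) had the same sign with the inhibitor, against 54.8% of all genes tested. The share was 76.1% of the higher genes (143 of 188) and 62.1% of the lower ones (95 of 153), and 66 were called in the same direction, 45 higher and 21 lower. Across the 341 genes, which are not independent replicates, the log2 fold changes of both contrasts had a Pearson r of 0.485 (0.134 over all genes tested). Within the higher genes r was 0.449, and within the lower ones -0.013. The difference of both genotype effects, tested in the same fit, was called for 93 genes (0.816%), 62 of which were among the 341. The 341 were chosen by the effect that this difference subtracts, which favours such an overlap.

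Several liver genes were also higher in KO co-culture with the inhibitor. There Ttr was at 263, 271, 262 and 235 FPKM in KO against 193, 207 and 184 FPKM in WT co-culture (0.40 ± 0.06, adjusted p = 0.0016), a smaller change than without it (difference -0.64, adjusted p = 0.00201). Agt was at 47.0, 43.6, 42.2 and 39.7 FPKM in KO against 27.5, 30.9 and 27.3 FPKM in WT co-culture (0.58 ± 0.07, adjusted p = 0.000601), and the difference of the effects missed the threshold (adjusted p = 0.258). Slc2a2 was at 40.0, 38.7, 38.8 and 40.6 FPKM in KO against 27.6, 26.6 and 30.4 FPKM in WT co-culture (0.47 ± 0.06, adjusted p = 0.000601). Not all calls recurred: Crp (0.09, adjusted p = 0.625), Apcs (0.30, adjusted p = 0.352), Apoe (0.41, adjusted p = 0.178) and Serpina1a (0.11, adjusted p = 0.734) missed the threshold there. Plasma protein genes had a median change of 0.38 with the inhibitor, with 12 of 25 higher and none lower. The hepatocyte markers, which include some of these genes, summed to 1158 to 1218 FPKM in KO against 905 to 925 FPKM in WT co-culture with the inhibitor, with a median change of 0.42 and 8 of 14 tested members higher, and their part in these counts was not tested. Ccl2, by contrast, was at 300, 297, 312 and 288 FPKM in KO and 288, 294 and 292 FPKM in WT co-culture with the inhibitor (0.04 ± 0.04, adjusted p = 0.837), and the effects differed (-0.66, adjusted p = 0.000118).

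Several immediate early genes went the opposite way in the libraries with the inhibitor. There 7 of the 29 were higher and none lower in KO co-culture, and for 9 of the 29 the effects differed. Egr1 was at 54.8, 54.6, 55.5 and 55.0 FPKM in KO against 44.9, 43.0 and 46.0 FPKM in WT co-culture (0.29 ± 0.03, adjusted p = 0.00023). Jun was at 33.3, 32.2, 32.9 and 30.7 FPKM in KO against 20.3, 22.1 and 20.9 FPKM in WT co-culture (0.59 ± 0.05, adjusted p = 4.13e-05). Fos and Btg2 were likewise higher, by 0.39 ± 0.08 and 0.45 ± 0.05 (adjusted p = 0.0221 and 0.000588), as was Dusp6, by 0.20 ± 0.03 (adjusted p = 0.00638). These 5 genes, with Cd63 and Ahnak in the other sense, were the 7 called in opposite directions in both contrasts. Atf3, a stress-induced partner of Jun that missed the threshold without the inhibitor, was with it at 24.0, 24.1, 24.0 and 23.5 FPKM in KO against 11.1, 9.33 and 9.17 FPKM in WT co-culture (1.199 ± 0.06, adjusted p = 6.49e-08), and its effects differed by 1.22 (adjusted p = 4.3e-06). Fosb was near its floor in both, at 0.0386 to 0.160 FPKM in KO and 0.0519 to 0.143 FPKM in WT co-culture with the inhibitor. In hepatocytes cultured alone Egr1 was at 180, 179 and 174 FPKM and Fos at 93.4, 96.0 and 90.7 FPKM, above every co-culture library.

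**Figure D5:**
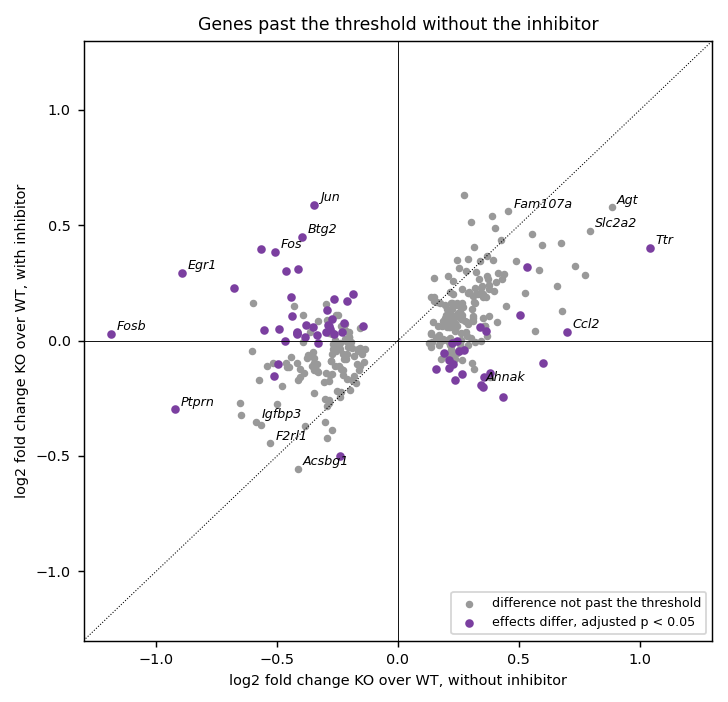
Log2 fold change of KO over WT co-culture (log2(FPKM + 1) scale) without the inhibitor (horizontal axis) and with it (vertical axis) for the 341 called genes, with purple points for the 62 genes whose effects differed at an adjusted p under 0.05 and a dotted line for equal effects. Agt and Slc2a2 lie in the upper right, Igfbp3, F2rl1 and Acsbg1 in the lower left, and Egr1, Fos, Jun and Btg2 in the upper left.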

How the data were processed

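RNA-seq was analysed in hepatocytes of KO and WT co-culture, 3 libraries each, grouped by the sample labels. Total RNA came from RNeasy mini kit extraction, per the labels' protocols. HISAT2 was the aligner and GRCm38 (mm10) the build, per the submitters' processing notes; the sources used here give no HISAT2 version, counter, annotation release or strandedness. The values were deposited by the authors as FPKM, next to a gene length in bases, for 54532 genes in 16 libraries with no pooling. FPKM times gene length gave whole multiples of 1 step per library (100% of values within 0.1 of a whole number), from which fragments and depth were recovered. PCR copies count as fragments here, so fragment numbers are not numbers of separate molecules. The SEs come from the spread between libraries in limma's fit. Of the gene symbols, 27 had become dates.

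Tests ran on log2(FPKM + 1), with no other scaling, for the 11395 genes (10226 protein coding) that averaged at least 1 FPKM across the 16 libraries. limma 3.58.1 (R 4.3.3) fitted a group mean in a single model of the 16 libraries (moderated variances with an intensity trend, 11 residual degrees of freedom, two-sided tests, Benjamini-Hochberg adjustment, threshold 0.05). On simulated data of 11405 genes, 87.9% of 1.5-fold and 97.0% of 2-fold changes between KO and WT co-culture were recovered. The simulation gave every gene the same spread beyond counting error and had no library that stood apart as WT replicate 1 did. It held no change below 1.5-fold, a size that 20 of the 341 calls reached. These shares therefore do not tell how many real changes were found here.

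The comparison, gene lists and named genes were chosen with earlier results of these data known. Named genes were the 20 largest rises and 20 largest falls among called protein-coding genes whose libraries did not overlap, up to 6 called members of each list, the 5 largest FPKM differences each way, up to 10 genes with differing effects, and Alb, Cxcr1, Cxcr2, Phgdh, Psat1, Psph, Shmt1 and Shmt2; not all are described, and some are not reported here. Alternatives were another pseudocount, filters, scalings, voom on recovered fragments, robust variances, a replicate block, a minimum fold, the 6 libraries alone and leaving out each library. Counts of list members without WT replicate 1 and in the 6 libraries alone were added after seeing the data. The main fit did not pair libraries by replicate number, as the labels name no pairing.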

Additional observations from a re-analysis of the deposited data

Results flagged for a closer look

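The genotype effect differed between co-cultures with and without the inhibitor for 31 genes named here, by limma's test of the difference (adjusted p under 0.05). Each value is the log2 fold change of KO over WT co-culture with the inhibitor minus that without it. Among immediate early genes the difference was 1.22 for Atf3, 1.22 for Fosb, 1.19 for Egr1, 0.93 for Jun, 0.89 for Fos, 0.85 for Btg2, 0.54 for Ier2 and 0.36 for Ier3. These 8 genes, other than Atf3, were lower in KO co-culture without the inhibitor.

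Of growth factor and stress genes, it was 0.96 for Il11, 0.91 for Sprr1a, 0.73 for Gdf15, 0.45 for Hbegf, 0.39 for Dusp6 and 0.30 for Ankrd1. Among surface, matrix and transport genes it was 0.62 for Ptprn, 0.40 for Abcb1a, 0.36 for Npnt, -0.41 for Cd63 and -0.53 for Ahnak. Nuclear regulators had 0.41 (Nfkbiz), 0.40 (Zfp57) and 0.37 (Hnf4a). Further genes that were higher in KO co-culture without the inhibitor were Ccl2 with -0.66, Ttr with -0.64, Rrm2 with -0.52, Usp18 with -0.51, Xdh with -0.39, Irgm1 with -0.33, Rras2 with -0.32, Top2a with -0.31 and C3 with -0.21. Apart from Atf3, all genes of this section were called without the inhibitor, and each difference subtracts that effect. A sign opposite to that effect was therefore favoured by the choice of genes and is no separate result.

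WT co-culture replicate 1, 1 of the 6 libraries of the contrast without the inhibitor, stood apart from the others, and without it 120 genes had differing effects in place of 93. The mitochondrial share of recovered fragments was 1.88 to 2.09% in KO and 1.86 to 2.11% in WT co-culture libraries with the inhibitor, below the shares without it, and its part in these differences was not tested.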

How the results depend on the processing

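No called gene named above changed direction between KO and WT co-culture under any alternative tried. The 341 calls (188 higher, 153 lower) became 17 (7 and 10) in the 6 libraries alone and 13 (7 and 6) when a fold of at least 1.2 was tested. With 1 library left out they ranged from 157 to 398, the higher ones from 78 to 227 and the lower ones from 74 to 171. Without the filter on low values 233 were called, 124 of them higher. Pseudocount, stricter filter, scaling, voom and robust variances gave 269 to 353. Of these 341 genes, 256 were also called with quantile normalization. Of the called genes named above, voom ended the calls of Acaa1b, Ankrd1, Apoh, Bcl3, Cxcl17, Dbp, Errfi1, Fosl1, Nr1h4, Onecut1, Rrm2, Serpina1a, Sprr1a, Usp18 and Vtn, and quantile normalization those of Apcs, Axl, B2m, Dsg2, Errfi1, Flna, Il11, Insr, Onecut1, Parp14, Pkm, Selenop, Serpina1a, Tpm4, Vcl and Vtn. The 263 calls with the inhibitor became 4 for a fold of at least 1.2 and ranged from 123 to 221 with 1 library left out. The 93 genes with differing effects became 7 for that fold, 55 without the filter and 41 in the 4 co-culture groups alone, and ranged from 31 to 120 with 1 library left out; the highest value was that without WT replicate 1.

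Same-numbered KO and WT libraries had deviations that correlated at 0.052, 0.27 and -0.30, and differently numbered ones at -0.40 to 0.33. No pairing by number was seen, and 3 libraries per group are too few to exclude one. With a replicate block 263 genes were called between KO and WT co-culture and 34 had differing effects. Called changes were mostly below 1.5-fold, most were not called in the 6 libraries alone, and low-level genes such as Apoh rest on few fragments. Whether the replicates are separate cultures, and what set WT replicate 1 apart, was not tested.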

Other observations

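A few further groups held single differences. Among 24 keratin and junction genes, Dsg2, a desmosomal cadherin, was higher at 37.3, 36.0 and 37.7 FPKM in KO against 33.4, 31.4 and 30.6 FPKM in WT co-culture (0.21 ± 0.04, adjusted p = 0.0198). Sprr1a, a cornified envelope protein induced by injury in other tissues, was lower at 0.978, 1.06 and 1.72 FPKM in KO against 1.93, 2.68 and 3.20 FPKM in WT co-culture (-0.68 ± 0.14, adjusted p = 0.017). Dbp, a clock output factor, was the only 1 called of 17 circadian genes, at 4.86, 4.57 and 4.68 FPKM in KO against 3.44, 3.97 and 3.63 FPKM in WT co-culture (0.29 ± 0.06, adjusted p = 0.0225), and Sphk2 overlaps it. Of 20 p53 targets 2 were lower, Btg2 and Mdm2, and none higher (10% called, against 2.99% of all genes). Mdm2, the ubiquitin ligase of p53, was at 42.2, 40.2 and 42.2 FPKM in KO against 55.3, 48.2 and 47.4 FPKM in WT co-culture (-0.27 ± 0.05, adjusted p = 0.0161). Each of these calls other than that of Btg2 was lost without at least 1 library: Dsg2 without KO replicate 1 or 3 or WT replicate 2 or 3, Sprr1a without KO replicate 1 or 2 or WT replicate 2 or 3, Dbp without any KO replicate or WT replicate 1 or 3, and Mdm2 without KO replicate 2.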
